A study of Arabidopsis thaliana with 4 samples.

Results

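Class I KNOX, BELL and CUC genes of the shoot meristem were compared between the Arabidopsis thaliana mutant ang3 and its control Landsberg erecta (Ler). The 10 genes were taken by locus from the probes that are not array controls: STM (At1g62360), KNAT1 (At4g08150), KNAT2 (At1g70510), KNAT6 (At1g23380), PNY (At5g02030), PNF (At2g27990), ATH1 (At4g32980), CUC1 (At3g15170), CUC2 (At5g53950) and CUC3 (At1g76420). Each has 1 probe among the 37478 gene probes, and all 10 passed the filter on dim probes, among 20155 genes and unnamed probes tested.

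The ang3 seedlings carry a mutation known, as background, to lie in RPL5B, a gene of the large cytosolic ribosomal subunit. The Ler seedlings are the control genotype, and the labels give no treatment for either. Both were sown in vitro, kept cold for 3 days and grown at 21 °C with 16 h of light. Sources differ on the tissue. The sample labels give shoot apex of stage 1.02, and the series text gives all green parts at stage 1.03, with the shoot meristem, young leaves and cotyledons together. RNA of both genotypes was hybridised to 4 two-colour oligonucleotide arrays (n = 4 ratios), with ang3 in Cy5 on replicates 1 and 3 and in Cy3 on replicates 2 and 4. The series text gives 4 harvests per genotype and speaks of dye swaps with biological replicates. It does not say which arrays share RNA extracts. The fit has a dye term, so p-values measure the spread between arrays with ang3 in the same dye, moderated over genes. That spread may be partly technical. Between 19678 and 21332 probes per array were well above background in ang3, and between 19224 and 21128 in Ler. The RPL5B probe had a log2 ratio of -0.04 (SE 0.069; limma adjusted p = 0.70) and gave no check of the labels.

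As background, class I KNOX proteins are homeodomain transcription factors that keep shoot meristem cells undifferentiated, and their genes are silenced where a leaf begins. They act as heterodimers with BELL homeodomain proteins, which carry them into the nucleus. CUC proteins are NAC transcription factors that mark the boundaries between organs and the meristem, and they are needed for STM expression in the embryo. KNOX proteins raise cytokinin synthesis and lower gibberellin levels.

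Levels below are normalised log2 intensities of each genotype's channel, and a ratio is the log2 difference, ang3 minus Ler, as the mean of 4 arrays. Levels of different probes are not compared. Of the 10 genes, 5 rose in ang3 at a limma adjusted p under 0.05 and 0 fell, against 15.0% of all genes that rose and 11.2% that fell, or 26.2% in either direction. At an unadjusted p under 0.05, 7 were higher and 0 lower, against 23.3% and 18.4% of all genes. The genes that rose were STM, KNAT1, KNAT6, PNY and PNF (ratios of 0.14 to 0.36). KNAT2, ATH1, CUC1, CUC2 and CUC3 did not pass. The median ratio of the 10 was 0.16, against 0.01 over all genes tested, and 9 of the 10 had a positive ratio on all 4 arrays, as had 25.0% of all genes, while 19.0% were negative on all 4. For 5 of them every ang3 level lay above every Ler level, against 13.2% of all genes, with 9.28% the other way round. In bulk RNA of either tissue, the number of meristem cells and the RNA per cell cannot be told apart.

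**Figure D1:**
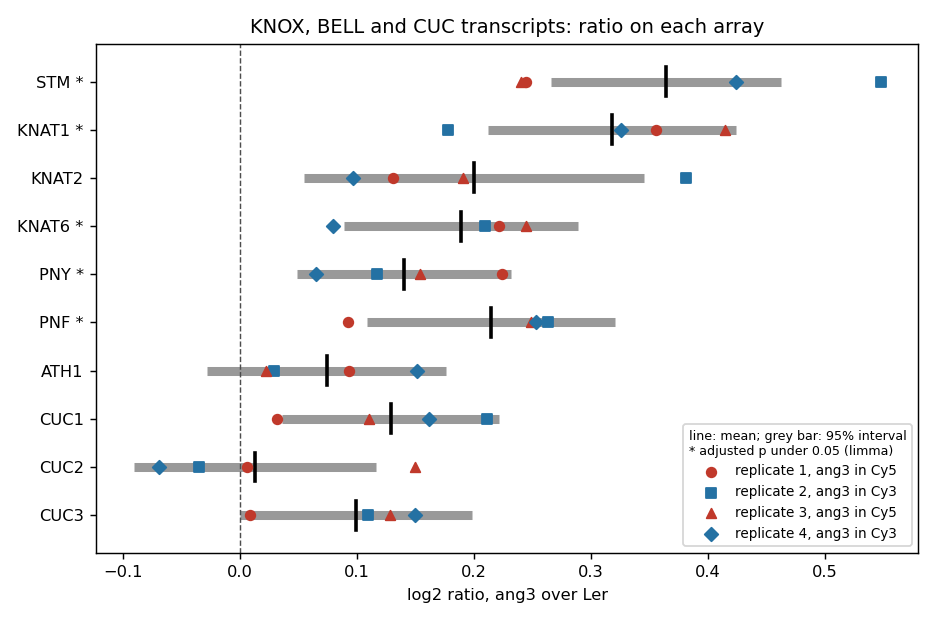
Log2 ratio of ang3 over Ler for each of the 10 genes on each array (points; shape gives the replicate, colour the dye of ang3), with the mean of 4 arrays (black line) and its 95% interval from the limma fit (grey bar). STM and KNAT1 stand highest at 0.36 and 0.32, and CUC2 is the gene whose points lie on both sides of 0.

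Among the class I KNOX genes, 3 of 4 rose and KNAT2 did not pass, with a median ratio of 0.26. STM, required to form and keep the shoot meristem, had levels of 9.27, 9.32, 9.26 and 9.39 in ang3 on replicates 1 to 4, against 9.02, 8.77, 9.02 and 8.96 in Ler. The genotypes did not overlap. Its ratio was 0.36 (SE 0.038, SD 0.15, n = 4; limma adjusted p = 0.0088), or 1.29-fold higher in ang3, and lay above 94.7% of all ratios tested. The STM ratio was 0.24 on both arrays with ang3 in Cy5, and 0.55 and 0.42 on those with ang3 in Cy3. The dye term of STM had an unadjusted p of 0.025 and a limma adjusted p of 0.29. Without replicate 3 the STM ratio stayed at 0.37 but its adjusted p was 0.056.

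KNAT1, also known as BREVIPEDICELLUS, which shapes internodes and pedicels, had levels of 9.59, 9.48, 9.55 and 9.18 in ang3, against 9.24, 9.30, 9.14 and 8.86 in Ler. Replicate 4 was low in both genotypes, so the levels overlapped, but each array gave a higher level in ang3. The KNAT1 ratio was 0.32 (SE 0.041, SD 0.10, n = 4; limma adjusted p = 0.012), or 1.25-fold higher in ang3. Without replicate 3 its adjusted p was 0.070.

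KNAT6, a redundant partner of STM in the meristem and at organ boundaries, had levels of 8.67, 8.62, 8.61 and 8.53 in ang3, against 8.45, 8.41, 8.37 and 8.45 in Ler. These levels did not overlap between genotypes. KNAT6 rose by 0.19 (SE 0.039, SD 0.074, n = 4; limma adjusted p = 0.028), with the smallest ratio, 0.08, on replicate 4. Its call was lost without replicate 1 (adjusted p = 0.096), replicate 2 (adjusted p = 0.090) or replicate 3 (adjusted p = 0.14). Without replicate 4 the call of KNAT6 was kept with a limma adjusted p just under 0.05. KNAT2, its closest relative, had levels of 7.98, 8.04, 8.0 and 7.99 in ang3, against 7.85, 7.66, 7.81 and 7.89 in Ler. All 4 ang3 levels of KNAT2 were above all Ler levels. Its ratio of 0.20 was about that of KNAT6, with a wider interval of 0.05 to 0.35, and missed the threshold (limma adjusted p = 0.058). KNAT2 passed under 6 of 14 other settings, among them the processed signals (ratio 0.37, adjusted p = 0.036), and its ratio was 0.13 without replicate 2 (adjusted p = 0.13).

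**Figure D2:**
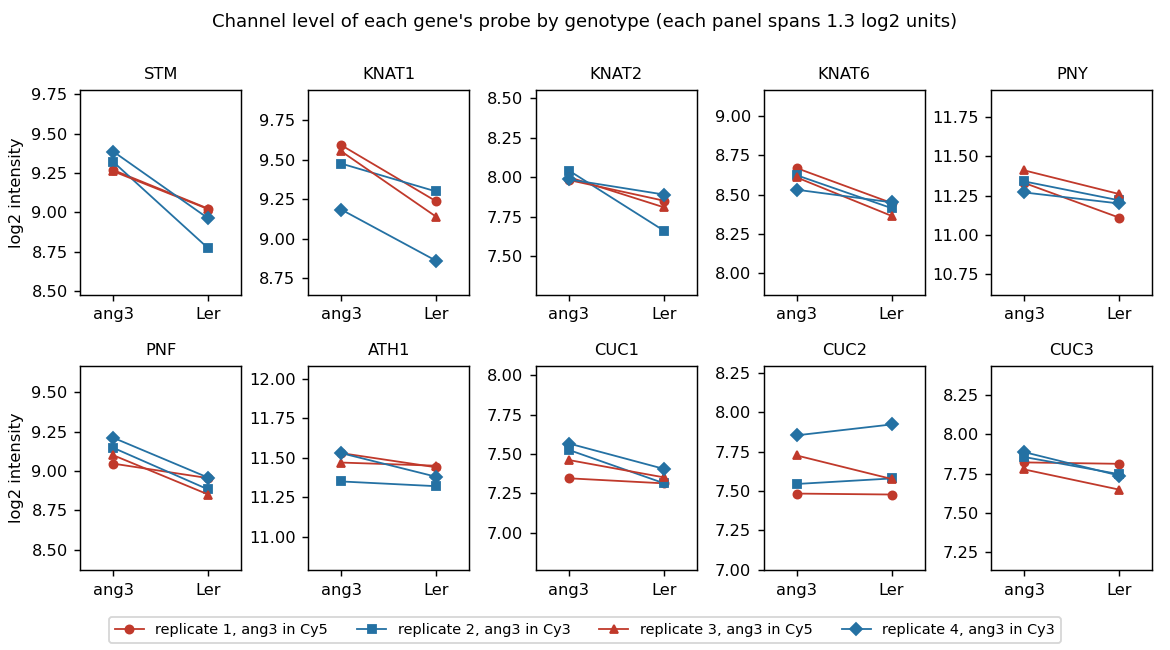
Normalised log2 intensity of each gene's probe in ang3 (left) and Ler (right), with a line for each of the 4 arrays (shape gives the replicate, colour the dye of ang3). Lines run down from ang3 to Ler on every array for 9 genes, and run both ways for CUC2.

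Of the 3 BELL genes, 2 rose and ATH1 did not pass, with a median ratio of 0.14. PNY, also called BELLRINGER, a partner of STM and KNAT1, had levels of 11.33, 11.34, 11.41 and 11.27 in ang3, against 11.11, 11.22, 11.26 and 11.20 in Ler. The lowest ang3 level was just above the highest Ler level. PNY rose by 0.14 (SE 0.036, SD 0.067, n = 4; limma adjusted p = 0.045), the smallest change among the 5 called genes. This call was lost under 9 of 14 other settings, among them each left-out replicate (adjusted p of 0.094 to 0.19) and the fit without a dye intercept (adjusted p = 0.070). With median centring the PNY ratio was 0.33, or 0.19 above the median of all genes.

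PNF, a close relative of PNY that acts with it in the meristem, had levels of 9.05, 9.15, 9.10 and 9.21 in ang3, against 8.96, 8.88, 8.85 and 8.96 in Ler. The genotypes did not overlap for PNF. It rose by 0.21 (SE 0.041, SD 0.082, n = 4; limma adjusted p = 0.023), where replicate 1 gave 0.09 and replicates 2, 3 and 4 gave 0.26, 0.25 and 0.25. Its call was lost with the processed signals (ratio 0.18, adjusted p = 0.063) and without replicate 2, replicate 3 or replicate 4 (adjusted p of 0.082, 0.13 and 0.072).

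ATH1, a BELL gene that acts in the vegetative meristem and at the stem base, had levels of 11.53, 11.35, 11.47 and 11.53 in ang3, against 11.44, 11.32, 11.45 and 11.38 in Ler. The genotypes overlapped for ATH1. Its ratio was 0.07, with a 95% interval of -0.03 to 0.18 (limma adjusted p = 0.22). With median centring it was 0.27 and passed (adjusted p = 0.030), against 0.14 for the median of all genes.

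None of the 3 CUC genes passed the limma test in either direction, and 1 of them, CUC1, had an unadjusted p under 0.05. CUC1 and CUC2 are redundant in separating the cotyledons and are targets of miR164, whereas CUC3 lacks that target site. CUC1 had levels of 7.35, 7.53, 7.46 and 7.57 in ang3, against 7.31, 7.31, 7.35 and 7.41 in Ler. Its ratio was positive on each array, at 0.03, 0.21, 0.11 and 0.16, with a mean of 0.13 (95% interval 0.04 to 0.22; limma adjusted p = 0.057). CUC3 had levels of 7.82, 7.86, 7.78 and 7.89 in ang3, against 7.81, 7.75, 7.65 and 7.74 in Ler. Both genes overlapped between genotypes. The CUC3 ratio was 0.10 (95% interval -0.0002 to 0.20; limma adjusted p = 0.12).

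CUC2 had levels of 7.48, 7.55, 7.73 and 7.85 in ang3, against 7.48, 7.58, 7.58 and 7.92 in Ler. Its ratio was 0.01, with 2 arrays above 0 and 2 below, and the interval of -0.09 to 0.12 bounds the difference (limma adjusted p = 0.84). The CUC spots were dim. For CUC1, median spot signals were 146, 122.5, 166 and 133.5 in ang3 over backgrounds of 87, 45.5, 77 and 46, against 100, 141.5, 117 and 147.5 in Ler over backgrounds of 47, 77.5, 46 and 81. The background step therefore weighs on these values. With the processed signals the CUC1 ratio was 0.34 (adjusted p = 0.028) and that of CUC3 0.19 (adjusted p = 0.039), both past the threshold, while CUC2 stayed at 0.02 (adjusted p = 0.80).

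The number of calls depended on the arrays used. Without replicate 3 the limma test called 0 of the 10 genes. At an unadjusted p under 0.05 there were 5, but the share of all genes was not computed there, so this count has no background. It called 3 without replicate 1, 2 without replicate 2 and 4 without replicate 4. Those 4 were STM, KNAT1, KNAT6 and KNAT2. Among them KNAT6 sat at the threshold (limma adjusted p just under 0.05), and KNAT2 was not called with all arrays. Over all genes, 8.38%, 5.76%, 1.86% and 8.11% were called higher without replicates 1 to 4, against 15.0% with all arrays. The mean ratio of the 10 genes was 0.14, 0.20, 0.19 and 0.16 on replicates 1 to 4, against 0.02 to 0.04 over all genes. When loess was replaced by median centring of each array, the median ratio of all genes was 0.14. On that scale STM stood 0.36 and KNAT1 0.33 above it, and 7 of the 10 genes lay above it. The other 3 were CUC1, CUC2 and CUC3.

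**Figure D3:**
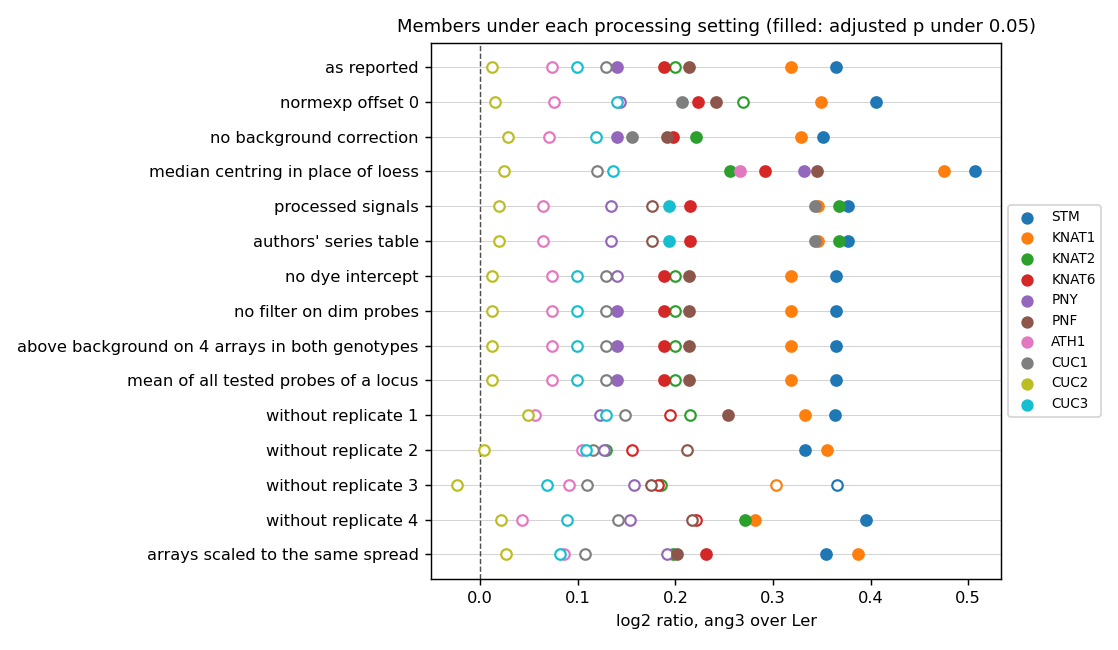
Log2 ratio of ang3 over Ler of the 10 genes (colours) under the reported processing (top row) and 14 alternatives, filled where the limma adjusted p is under 0.05. STM and KNAT1 are filled in every row other than the one without replicate 3, and CUC2 is open in each row.

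By the submitters' criterion of a p under 0.05 with a change over 2-fold, no gene of the 10 was called. In the authors' deposited array files, 4 of 40 gene-by-array p-values were under 0.05, against 13.3% over all genes and arrays, and 0 of 40 also had over 2-fold, against 3.28%. These 4 were STM on replicates 2 and 4, with deposited p-values of 0.0067 and 0.028, KNAT1 on replicate 3 with 0.014 and KNAT2 on replicate 2 with 0.014.

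Other genes of the same network were read from 9 lists holding 69 genes, of which 59 were tested. Of these 59, 6 rose and 5 fell, and their median ratio was -0.005, against 0.01 over all genes and backgrounds of 15.0% and 11.2%. The same backgrounds apply to the calls of each list below. For list counts at an unadjusted p under 0.05 they are 23.3% higher and 18.4% lower. Of 9 genes listed with the regulators that restrict KNOX expression, 2 rose, 1 fell and 6 did not pass (median 0.06). This share of calls is near the 26.2% over all genes. AS1, a MYB factor that keeps KNAT1, KNAT2 and KNAT6 off in leaves, had levels of 12.48, 12.55, 12.44 and 12.87 in ang3, against 12.16, 12.18, 12.22 and 12.18 in Ler. AS1 was higher in ang3 on each array and rose by a mean of 0.40 (SE 0.062, SD 0.20, n = 4; limma adjusted p = 0.015). LOB, in this list as a boundary gene of the family of AS2 and not as a known KNOX repressor, rose by 0.33 (limma adjusted p = 0.014). The LOB ratio was 0.43 with a normexp offset of 0 and 0.57 with the processed signals. FIE, of the Polycomb complex that represses KNOX genes, fell by 0.17 on the log2 scale (limma adjusted p = 0.036), a call kept under 7 of 14 settings. It was lost whichever replicate was left out (adjusted p of 0.074 to 0.19), without a dye intercept and with arrays scaled to one spread, and the ratio was 0.02 with median centring. The calls of AS1 and LOB were lost without replicate 3, and that of AS1 without replicate 1 also.

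Of 6 hormone genes that KNOX proteins are known to act on, 5 were tested, 1 rose, 0 fell and 4 did not pass (limma; 2 higher and 2 lower at an unadjusted p under 0.05). GA2OX2, which inactivates gibberellin, had levels of 8.05, 8.14, 8.03 and 8.02 in ang3, against 7.83, 7.74, 7.82 and 7.77 in Ler. Its ratio was 0.27 (SE 0.040, SD 0.087, n = 4; limma adjusted p = 0.014), a call lost without replicate 1 or replicate 3. The GA2OX2 ratio was 0.36 with a normexp offset of 0 and 0.54 with the processed signals. The gibberellin synthesis genes GA20OX1 and GA20OX2, named after their values were seen, had ratios of -0.16 and -0.16. Both missed the threshold (limma adjusted p of 0.051 and 0.059). The GA20OX2 ratio was 0.08 and -0.08 with ang3 in Cy5, and -0.36 and -0.26 with ang3 in Cy3. GA2OX4 had a ratio of -0.0007 (limma adjusted p = 0.99), and IPT5 was too dim to be tested. IPT7, of cytokinin synthesis and likewise named after its values were seen, had a ratio of 0.14 (limma adjusted p = 0.077). It was above background on 3 ang3 arrays and 1 Ler array, so it was tested only through the genotype where it is higher. Among 8 tested type-A ARR genes, which respond to cytokinin, 2 fell, 0 rose and 6 did not pass (limma; 4 lower and 0 higher at an unadjusted p under 0.05). ARR4 had a ratio of -0.26 (limma adjusted p = 0.012) and ARR9 of -0.21 (limma adjusted p = 0.015), each negative on 4 of 4 arrays. The mean ratio with ang3 in Cy5 was -0.12 for ARR4 and -0.19 for ARR9, against -0.40 and -0.24 with ang3 in Cy3. ARR8 and ARR15, lower only at an unadjusted p under 0.05, had 0.01 and 0.01 in Cy5, and -0.27 and -0.27 in Cy3. With median centring the ARR4 and ARR9 ratios were -0.07 and -0.02 and neither passed. ARR4 was also lost without replicate 3, and ARR9 whichever replicate was left out.

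Of 5 other KNOX genes 0 passed the limma test and 2 were higher at an unadjusted p under 0.05. The lowest adjusted p was that of KNAT7, a class II gene of secondary wall formation, at 0.079 with a ratio of 0.11. Of 8 tested BELL genes outside the 3 above, BLH1 rose by 0.45 (SE 0.053, SD 0.19, n = 4; limma adjusted p = 0.010), BLH6 had a ratio of -0.24 (limma adjusted p = 0.044) and 6 did not pass. BLH1 had the highest ratio among all listed KNOX and BELL genes, and its call was lost only with the arrays scaled to one spread (adjusted p = 0.055). BLH6, which acts with KNAT7 in secondary walls, lost its call under 9 of 14 settings and was at -0.06 with median centring.

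Of 5 tested boundary regulators, 2 rose and 3 did not pass (median 0.11). LSH4 and LSH3, boundary genes known to act downstream of CUC1, were the 2 that rose. LSH4 had levels of 10.43, 10.23, 10.28 and 10.17 in ang3, against 9.87, 9.84, 9.74 and 9.96 in Ler, a ratio of 0.42 (SE 0.043, SD 0.16, n = 4; limma adjusted p = 0.0085). LSH3 rose by 0.35 (SE 0.037, SD 0.14, n = 4; limma adjusted p = 0.0087). Both were positive on 4 of 4 arrays. Without replicate 3 their adjusted p-values were 0.052 and 0.0504. LAS, LOF2 and RAX1 were too dim to be tested.

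Of 4 other NAC genes of the miR164 target family, 0 passed the limma test and 2 were higher at an unadjusted p under 0.05. NAC1 had a ratio of 0.27 (SD 0.26; limma adjusted p = 0.091), and was -0.06, 0.54, 0.39 and 0.21 on replicates 1 to 4. Of 5 CIN-type TCP genes, which repress CUC genes in leaves, 0 passed and 1 was lower at an unadjusted p under 0.05. That gene, TCP2, had a ratio of -0.10 (limma adjusted p = 0.12), and 0.09 with median centring. Of 10 tested genes of the WUS-CLV feedback loop, its receptors and HAM factors, 1 fell, 0 rose and 9 did not pass (limma; 3 lower and 1 higher at an unadjusted p under 0.05). HAM2, a GRAS factor that partners WUS, had a ratio of -0.15 (limma adjusted p = 0.043), a call lost under 10 of 14 settings, while median centring gave 0.04.

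**Figure D4:**
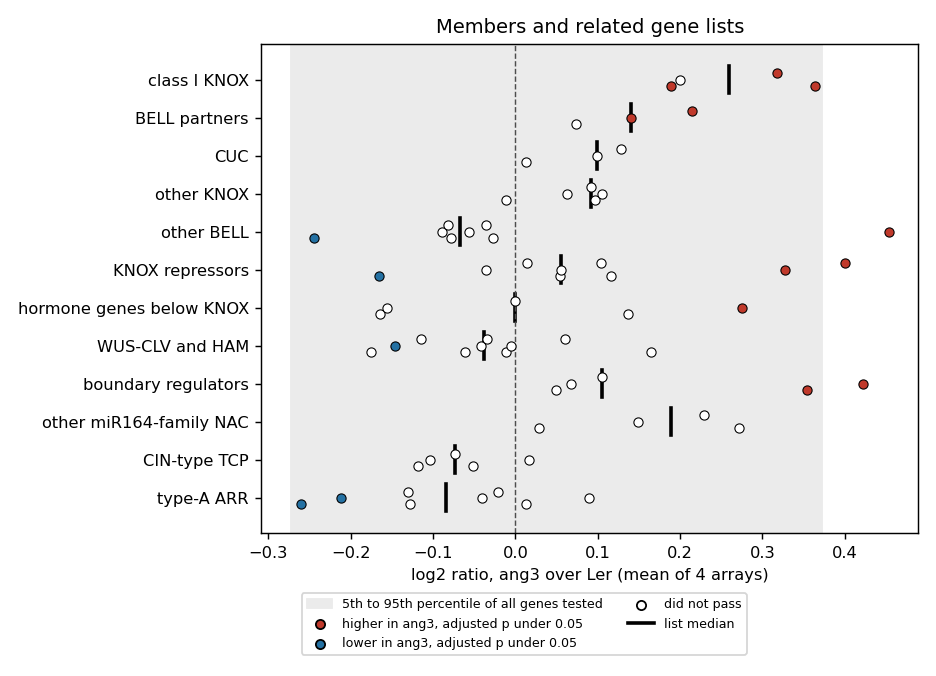
Mean log2 ratio of ang3 over Ler for each tested gene (points) of the 3 groups of members (top) and of the 9 related lists, with the list median (black line). Colour marks limma calls, and the grey band spans the 5th to 95th percentile of all genes tested (-0.27 to 0.37). STM lies just inside the upper end of the band, and AS1, LSH4 and BLH1 lie beyond it.

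Markers were read to check the labelled tissue. WUS and CLV3, which mark the organising centre and the stem cells, were not well above background on any array in either genotype. CLV1 was above background on all arrays, with a ratio of -0.18 that missed the threshold (limma adjusted p = 0.058). STM, KNAT1, CUC1, CUC2 and CUC3 were above background on 4 of 4 arrays in both genotypes. Of 7 leaf blade genes, 4 fell, 1 rose and 2 did not pass (median -0.17), against 11.2% of all genes that fell and 15.0% that rose. The summed intensity of the 7 was 448800 to 521400 in ang3, against 479900 to 563300 in Ler. LHCB3 and LHCB1.1, of light-harvesting proteins, had ratios of -0.34 and -0.39, and RBCS2B, of Rubisco, rose by 0.41. The LHCB1.1 ratio was -0.07 and -0.08 with ang3 in Cy5, and -0.81 and -0.59 with ang3 in Cy3. Its call was lost without a dye intercept or replicate 3, and that of LHCB3 with median centring or without replicate 3. The other falls, of LHCA1 and RBCS1A, were kept under 3 and 5 of 14 settings. All 7 were well above background on 4 of 4 arrays in both genotypes. Of 8 flower genes, 4 were tested, of which SEP3 (-0.90), SEP1 (-0.36) and PI (-0.25) were called lower and AP3 did not pass. Over all genes 11.2% were called lower. SEP1 was above background on 1 ang3 array and 4 Ler arrays, so it was tested only through Ler, and its ratio was -0.70 with a normexp offset of 0 and -1.80 with the processed signals. The PI ratio was -0.87 with the processed signals, and its call was lost without replicate 2, 3 or 4. The SEP3 call was lost without replicate 3 (adjusted p = 0.071). The summed intensity of the 8 probes was 1455 to 1742 in ang3, against 2074 to 2472 in Ler. SEP3 carried this gap, since without it, as computed after its values were seen, the sum was 945.4 to 1018 in ang3, against 1014 to 1073 in Ler, and the genotypes overlapped. Those 7 probes were dim, so the floor enters their sum and its overlap says little about them. SEP2 was not well above background on any array. Of 10 root genes 5 were tested and 0 passed (limma; 1 higher and 2 lower at an unadjusted p under 0.05). Their sum was 1478 to 1517 in ang3, against 1493 to 1536 in Ler, and EXPA18, PRP3 and CASP5 were not well above background on any array. The floor of such dim probes enters the root sums (EXPA18 had levels of 6.96 in ang3 and 6.94 in Ler). These sums therefore say little about root tissue. The part of these marker shifts in the ratios of the KNOX and BELL genes was not tested.

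The genes most alike to STM and KNAT1 were found by the Euclidean distance between their 4 array ratios, outside the 10 genes. For STM these were AT5G12940 (distance 0.058, ratio 0.37), TRIP-1 (AT2G46280; distance 0.062, ratio 0.36) and the boundary gene LSH3 (distance 0.070). For KNAT1 they were AT1G35780 (distance 0.048, ratio 0.30), HLL (AT1G17560; distance 0.061, ratio 0.33) and HB21 (AT2G02540; distance 0.061, ratio 0.31). Each of these 6 genes was called higher with limma (adjusted p of 0.0083 to 0.013), and each lost its call without replicate 3. With 4 arrays such likeness is a description of these ratios.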

How the data were processed

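RNA (1 µg per sample, with spike-in transcripts) was measured on 4 two-colour arrays from 1 slide and 1 scan, so no batch block could be fitted. Per the file headers, the authors quantified spots with Agilent Feature Extraction 10.1.1.1. The deposited spot and background intensity values are median pixel values without normalization. The deposited processed intensity values are background-subtracted and dye-normalized within each array, and the deposited log10 ratio equals processed red over green (within 0.001) for 66.8 to 75.3% of spots per array and is exactly 0 for 24.7 to 33.2%. The deposited p-value comes from an error model of 1 array. Flags of other kinds (well above background, outlier) were also used as deposited. A deposited table of log2 values for 32149 probes correlated at r = 1 on all 4 arrays with the processed ang3 over Ler signals. Its direction is thus settled. The STM and KNAT1 ratios from it equalled those from the processed signals (0.38 and 0.35 from either), which settles its scale. Its column medians of -0.045, 0.026, 0.0077 and -0.097 show no centring.

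In R 4.3.3 with limma 3.58.1, median signals were corrected by normexp (offset 50) and normalized by loess within each array. Control spots had weight 0 and outlier spots (12, 6, 12 and 4 per array) were left out. Saturated spots numbered 0. Testing required a signal well above background in either genotype on 3 or more of the 4 arrays, and the brightest probe stood for its locus. The lmFit and eBayes model had a dye intercept (2 residual and 3.03 prior degrees of freedom) and Benjamini-Hochberg adjustment over all 20155 genes and unnamed probes. SE is that of the mean of 4 arrays in this moderated fit, whereas SD is the plain SD of the 4 array ratios. The SD holds any dye effect, which the fit takes out, so SE does not follow from SD. Channel levels are after Aquantile scaling. Figures used Python 3.11.15 and matplotlib 3.10.9.

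Gene names came from the array files by locus and from the TAIR10.1 gene table, which held all 104 listed genes. Coordinates are left out because no build is stated in the files. Near-identical genes can share hybridisation signal. The members and lists were chosen with earlier results of these data known. Text names all members, up to 4 called genes per list with the smallest adjusted p (or the 1 with the smallest), the 3 genes nearest to STM and to KNAT1, and RPL5B. WUS, CLV1, CLV3 and the tissue marker genes are named besides. The other listed hormone genes, ARR8 and ARR15 were named after their values were seen.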

Additional observations from a re-analysis of the deposited data

Results flagged for a closer look

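Of 39 genes named here whose 4 array ratios were examined for a single array far from the others (Dixon's 95% limit), 3 exceeded it, and chance flags about 1 in 20. PNF had a log2 ratio of ang3 over Ler of 0.092 on replicate 1, against 0.25 to 0.26 on the other arrays. HAM2 stood at -0.078 on replicate 1, against -0.18 to -0.16 on the others. HLL was at 0.21 on replicate 2, against 0.36 to 0.39 on the others.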

How the results depend on the processing

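Over 14 alternatives, 1 of them (arrays scaled to one spread) chosen after seeing the data, the 10 genes gave 140 ratios. Of these, 107 kept their direction and side of the threshold, 19 lost a call, 13 gained one and 1 changed sign (CUC2, -0.023 without replicate 3, in a range of -0.023 to 0.049 with replicates left out). With replicates left out, 0 to 4 of the members were called higher, against 5 with all arrays. Over all genes 374 to 1688 were called higher and 162 to 1220 lower, against 3018 and 2265. In the 9 related lists 1 to 8 genes were higher and 0 to 2 lower, against 6 and 5. Without replicate 3, where limma called 0 members and 0 list genes lower, unadjusted p-values under 0.05 were held by 5 members (all higher). Of the 59 tested list genes, 6 were higher and 5 lower at that threshold. The share over all genes was not computed for it.

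Median centring called 6952 genes higher and 425 lower, or 94.2% of calls higher against 57.1%, and 18 list genes higher and 0 lower (0 also at an unadjusted p under 0.05). With the processed signals 46.8% of calls were higher. Of list genes, 3 were lower without a dye intercept and 3 with arrays scaled to one spread. An unadjusted p under 0.05 with over 2-fold left 114 genes higher and 6 lower, and 0 members. With median centring the ratios of FIE (0.021), HAM2 (0.044), TCP2 (0.090), CLV1 (0.0068) and RPL5B (0.095) changed sign, and RPL5B ranged from -0.13 to 0.057 with replicates left out, positive without replicate 1; the cause was not tested. Fewer arrays were fitted where a replicate was left out, with 1 residual degree of freedom, and the lone array of a dye orientation is then assumed to vary like the others. Each ratio already pairs both genotypes on 1 array, so no further pairing was fitted. The slide was not run as a block, there being 1 slide. CUC spots lay close to background, which limits their ratios.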
